A study of Mus musculus with 2 samples.

Results

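The Mir30 family was examined in small RNA libraries from skeletal muscle of newborn mice. The family was taken by name and genome identifier, without use of any measured value, as the 6 genes Mir30a, Mir30b, Mir30c-1, Mir30c-2, Mir30d and Mir30e, out of 1973 listed genes. All 6 had a row in both libraries, and all 6 reached the minimum of 10 counts used for testing. The 2 libraries came from total RNA of strain B6NCrl mice at postnatal day 0, 1 from pup 1 (replicate 1) and 1 from pup 2 (replicate 2) of the same pregnancy, with sex not collected. No agent, allele or transgene was named for either pup. Both pups belong to 1 group, so there was no contrast between conditions, and a difference between libraries cannot be told apart from a difference in dissection or library preparation.

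MicroRNAs are cut from a hairpin RNA as short strands, 5p from its first side and 3p from its second, and the strand held by an Argonaute protein lowers the output of messenger RNAs that match its seed, bases 2 to 8. The miR-30 family is found in many tissues, among them striated muscle. Its 5p strands share a seed, and the family has been linked to the differentiation of myoblasts and, in the heart, to control of connective tissue growth factor. Its genes lie in 3 genomic pairs, Mir30a with Mir30c-2, Mir30d with Mir30b, and Mir30e with Mir30c-1. Which gene of each pair gave more reads, and by how much, was the main comparison.

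The mature 5p sequences are shown because they hold the seed that defines the family and the bases that tell its members apart. RefSeq (GRCm38.p6, the same assembly as mm10) gave sequences for 4 members, and Mir30b and Mir30d are named only. The seed is in capitals.
miR-30a-5p: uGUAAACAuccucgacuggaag
miR-30e-5p: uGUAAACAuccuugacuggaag
miR-30c-5p: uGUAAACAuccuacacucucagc
miR-384-5p: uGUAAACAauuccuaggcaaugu
The seed GUAAACA was found in 5 of 1738 mature entries of the table, namely those of Mir30a, Mir30c-1, Mir30c-2, Mir30e and Mir384. The 5p strands of Mir30a (chr1:23272274-23272295) and Mir30e (chr4:120772660-120772681) differ by 1 base, C13U, counted from the 5′ end with the Mir30a base first. The 5p strand of Mir30c-1 (chr4:120769584-120769606) is identical, over all 23 bases, to that of Mir30c-2 (chr1:23291714-23291736). Against miR-30c-5p, both miR-30a-5p and miR-30e-5p share the first 12 bases. A read of miR-30c-5p therefore fits at least 2 places in the genome equally well. A whole 5p strand of Mir30a or Mir30e shared at most 12 bases in a row with another gene's hairpin in a table of 1005. That table lacks Mir30b and Mir30d. As the 5p strands of Mir30a and Mir30e differ by 1 base, this run does not show that every read was placed at the right gene.

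The hairpins of the 2 Mir30c genes show which bases can separate them. They are printed with the mature strands in capitals, first the 5p and then the 3p.
Mir30c-1: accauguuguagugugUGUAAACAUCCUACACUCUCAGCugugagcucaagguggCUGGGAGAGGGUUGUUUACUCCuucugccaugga
Mir30c-2: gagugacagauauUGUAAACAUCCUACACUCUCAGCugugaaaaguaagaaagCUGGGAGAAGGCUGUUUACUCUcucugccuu
Their 3p strands differ by 3 bases, which are in capitals in the next lines and read G9A, U12C and C22U from Mir30c-1 to Mir30c-2.
miR-30c-1-3p: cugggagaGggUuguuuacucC
miR-30c-2-3p: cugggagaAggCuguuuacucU
The 3p strands of Mir30a and Mir30e, a separate group with the seed UUUCAGU, differ by 1 base, G18A.
miR-30a-3p: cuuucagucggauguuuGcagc
miR-30e-3p: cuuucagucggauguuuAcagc
The letters UGUUUAC, the reverse complement of the family seed, stand in the hairpins of Mir30c-1, Mir30c-2 and Mir30e, in each case within the 3p strand, and not in that of Mir30a. On the hairpin strand alone, 9 of 1005 hairpins, or 0.896%, held these letters.

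Depth and the tissue label were checked first. Replicate 1 held 3754895 counts in genes on their own strand and replicate 2 held 5133949. Reads that map to several places, 30.2% of all reads in replicate 1 and 29.9% in replicate 2, were listed apart and enter no gene's count. Skeletal muscle markers were present, with 8 of 9 fixed genes listed, none of the 8 at 0 in both libraries, and sums of 81335 and 89352 CPM, a gene's own-strand counts scaled to 1000000 counts over all genes of the library. The muscle miRNA Mir206 made up most of that, at 83323 ± 5480 CPM (SD, n = 2). Means were 773 CPM for Mir133b, 599 for Mir499, 564 for Mir208b and 70.8 for Mir486. Mir1a-1, Mir133a-1 and Mir133a-2 were low, at means of 7.68, 5.78 and 1.12 CPM. Each is a numbered copy, and a read that fits several copies enters no gene's count. These low values therefore cannot show that the muscle held little of their miRNAs. Neural markers were near 0, with sums of 0.533 and 0.195 CPM over 5 listed genes, and Mir124a-1, Mir124a-2, Mir124a-3 and Mir9-2 at 0 in both libraries. These neural genes are numbered copies too, with the same limit. The values near 0 therefore cannot show that neural RNA was absent. Markers of other cell types were abundant as well. The endothelial marker Mir126a had 40785 CPM in replicate 1 and 36558 in replicate 2. The 5 fibroblast and smooth muscle markers summed to 36926 and 36209 CPM. The listed white blood cell markers summed to 534 and 362 CPM, and the red blood cell markers to 416 and 299 CPM. The 7 epithelial and skin markers summed to 5688 CPM in replicate 1 and 230 in replicate 2, and the cartilage marker Mir140 to 6539 and 966, so the 2 libraries are not alike in these.

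The family as a whole held 1.66% of gene counts in replicate 1 (95% interval 1.64 to 1.67, exact Clopper-Pearson) and 1.36% in replicate 2 (1.35 to 1.37), a mean of 1.51% ± 0.206 (SD, n = 2). Without molecular identifiers, PCR copies cannot be told from separate molecules, and the intervals therefore cover counting error alone. Nearly all of the family's counts came from Mir30e, Mir30a and Mir30d, which together held 99.1% of them in replicate 1 and 98.9% in replicate 2. The other 3 genes, Mir30b, Mir30c-1 and Mir30c-2, held 0.0148% and 0.0145% of all gene counts. Reads with several places, such as those of miR-30c-5p, enter neither the family's share nor its split between genes. In bulk tissue, fewer cells that make a miRNA and less of it per cell cannot be told apart.

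Mir30e led the family. It had 28469 counts, or 7582 CPM, in replicate 1 and 30033 counts, or 5850 CPM, in replicate 2, which placed it 30th of all listed genes by mean. It lies on chromosome 4 (mm10, 120772606 to 120772697, minus strand) in an intron of Nfyc, which encodes a subunit of the transcription factor NF-Y. Mir30a followed with 17696 counts, or 4713 CPM, and 20188 counts, or 3932 CPM, at rank 43. Mir30a lies on chromosome 1 (23272269 to 23272339, plus strand), where the annotation gives no host gene. Mir30d was next with 15474 counts, or 4121 CPM, and 19105 counts, or 3721 CPM, at rank 47. Its place is chromosome 15 (68341208 to 68341289, minus strand), where an exon of Gm20732, a non-coding gene, overlaps it.

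The order Mir30e, Mir30a, Mir30d was the same in both libraries. Mir30e lay above Mir30a in each, by 1.61-fold and 1.49-fold in counts, and its 2 values did not overlap those of Mir30a. The values of Mir30a and Mir30d overlapped across libraries, since Mir30a in replicate 2 was below Mir30d in replicate 1. Within a library Mir30a had 1.14-fold (1.12 to 1.17) and 1.06-fold (1.04 to 1.08) the counts of Mir30d, which is beyond counting error but small. A small RNA read usually covers a whole mature strand, so a hairpin's length has little bearing on its count, but the hairpins differ in annotated length, from 71 bases in Mir30a to 96 in Mir30b. Per base of hairpin, the mean ratio of Mir30e to Mir30a was 1.19 and that of Mir30a to Mir30d 1.27, so the order held on that scale too.

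The other 3 genes were far lower. Mir30b had 418 counts, or 111 CPM, in replicate 1 and 529 counts, or 103 CPM, in replicate 2, at rank 169. It lies on chromosome 15 (68337415 to 68337510, minus strand) outside any annotated host gene. Mir30c-1 had 87 counts, or 23.2 CPM, and 126 counts, or 24.5 CPM, at rank 231. It shares the Nfyc intronic setting of Mir30e, on chromosome 4 (120769534 to 120769622, minus strand). Mir30c-2 was the lowest member, with 51 counts, or 13.6 CPM, and 87 counts, or 16.9 CPM, at rank 247. Its hairpin lies in an exon of the short non-coding gene Gm27028 on chromosome 1 (23291701 to 23291784, plus strand).

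These 3 genes did not overlap one another or the upper 3. Mir30b had 4.80-fold and 4.20-fold the counts of Mir30c-1 in the 2 libraries. Mir30c-1 had 1.71-fold (1.19 to 2.46) and 1.45-fold (1.09 to 1.93) the counts of Mir30c-2. The counts of Mir30c-1 and Mir30c-2 cannot be read as the amount of miR-30c. Their 5p strand has at least 2 places in the genome, reads with several places were left out, and both genes together kept only 138 and 213 counts. Opposite-strand counts were 0 at all 6 genes in both libraries.

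**Figure D1:**
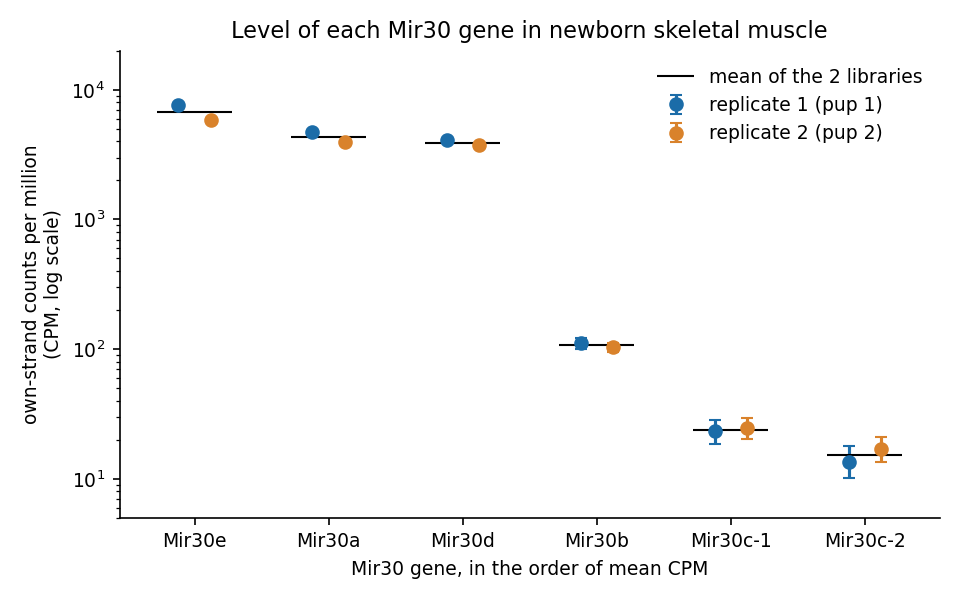
Own-strand CPM (log scale) of each Mir30 gene in replicate 1 (blue) and replicate 2 (orange), with 95% exact intervals for counting error, which are smaller than the points for the upper 3, and black lines for the mean. Mir30e, Mir30a and Mir30d lie between 3721 and 7582 CPM, and Mir30b, Mir30c-1 and Mir30c-2 between 13.6 and 111 CPM.

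Each genomic pair gave very unequal counts. In all 3 pairs the higher gene was the member of the group Mir30a, Mir30d and Mir30e. Mir30a, with its start 19432 bases from that of Mir30c-2, had 347 times its counts in replicate 1 (95% interval 264 to 466) and 232 times in replicate 2 (188 to 290). As a log2 ratio this was 8.14 ± 0.41 (SD, n = 2). Mir30e, 3072 bases from Mir30c-1, had 327 times its counts (265 to 409) and 238 times (200 to 286), a log2 ratio of 8.12 ± 0.32. Mir30d, 3793 bases from Mir30b, had 37.0 times its counts (33.6 to 40.9) and 36.1 times (33.1 to 39.4), a log2 ratio of 5.19 ± 0.025. In every pair the ratio was many times its spread between libraries.

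The 3 pairs fell into 2 sizes. The ratios of the Mir30a and Mir30e pairs, which both contain a Mir30c gene, overlapped each other in both libraries, and the ratio of the Mir30d pair lay below both in each library. Per base of hairpin the mean folds were 333 for Mir30a over Mir30c-2, 269 for Mir30e over Mir30c-1 and 42.8 for Mir30d over Mir30b. The duplicated 5p strand of the Mir30c genes moves with this split, and its part in the ratios was not tested. With 2 libraries a permutation test cannot reach the usual threshold, so no p-value is given for these ratios.

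Summed over the pair, the Mir30e pair held 6740 ± 1224 CPM, the Mir30a pair 4338 ± 550 CPM and the Mir30d pair 4028 ± 288 CPM (SD, n = 2). The Mir30e pair was the highest in each library, with 7605 and 5874 CPM. The Mir30a pair, at 4726 and 3949 CPM, overlapped the Mir30d pair, at 4232 and 3824 CPM.

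Other miRNA genes that lie next to each other gave the frame for these ratios. Pairs of listed genes next to each other on 1 strand, with starts at most 25 kb apart and at least 10 counts for each gene in each library, numbered 103, among them the 3 Mir30 pairs. The other 100, some of which share a gene, had a median absolute log2 ratio of 2.93, with quartiles of 1.22 and 5.17. The Mir30a and Mir30e pairs stood 7th and 8th of the 103, and the Mir30d pair 28th. Among the other pairs, 6 were at least as unequal as the Mir30a pair, and 25 were at least as unequal as the Mir30d pair.

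A lower gene with a mature sequence made at another gene too, as in the Mir30c genes, was found in 18 of the other pairs, whose median absolute log2 ratio was 5.37 with quartiles of 1.14 and 7.56. Where the lower gene shared none in the sequence table, the median was 2.41 over 73 pairs, with quartiles of 1.20 and 4.14. That table lacks some genes, so a shared sequence can be missed. The remaining 9 had a lower gene with no entry in the sequence table. These pairs overlap widely, and the medians describe them without a test. Of the 6 that were at least as unequal as the Mir30e pair, 4 had such a lower gene. Some of these 4, and some of the 18, have the same lower gene, so they are not separate cases.

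**Figure D2:**
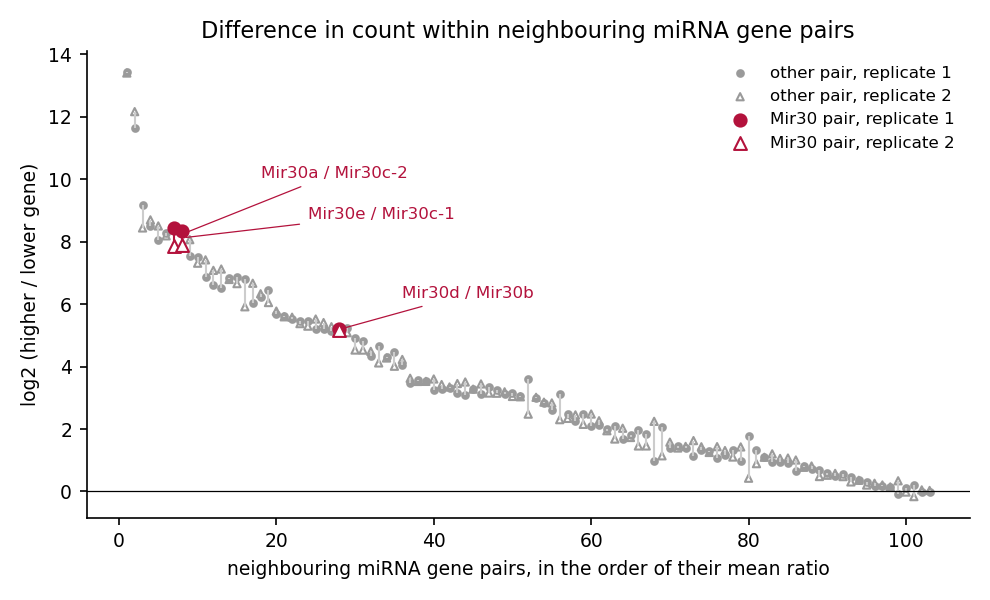
Log2 ratio of the higher over the lower gene in 103 neighbouring miRNA gene pairs, ordered by their mean ratio, with circles for replicate 1 and triangles for replicate 2 and the 3 Mir30 pairs in red. The pairs with a Mir30c gene stand 7th and 8th at mean log2 ratios of 8.14 and 8.12, and the Mir30d pair stands 28th at 5.19.

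Genes were also grouped by their mature sequences. Of 582 listed genes with both a 5p and a 3p entry, 452 had counts in either library. In 403 of these neither sequence was found at another gene of the sequence table, which lacks some genes, such as Mir30b and Mir30d. Mir30e and Mir30a belong to these 403. At 6716 ± 1225 and 4323 ± 552 CPM (SD, n = 2), they lay far above the group's median of 3.40 CPM and above its upper quartile of 425 CPM. In 45 genes 1 of the sequences was made elsewhere too, and their median was 22.5 CPM. Mir30c-1 at 23.9 ± 0.971 CPM and Mir30c-2 at 15.3 ± 2.38 CPM lay near that median. Of the 45, 1 had at least 1000 CPM, Mirlet7f-2 at 1335 CPM, against 77 of the 403. In 4 further genes both sequences were made elsewhere. Taken as a pair that shares 1 strand and differs in the other, Mir30c-1 and Mir30c-2 summed to 39.1 CPM and stood 10th of 24 such pairs, where Mir16-1 and Mir16-2 were highest at 1096 CPM.

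**Figure D3:**
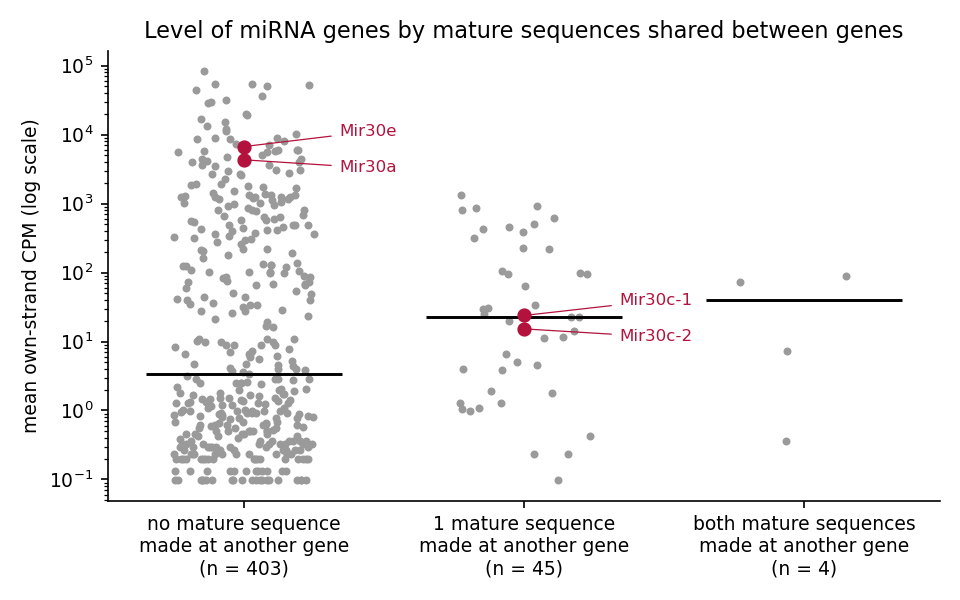
Mean own-strand CPM (log scale) of genes with counts in either library, by how many of their mature sequences are found letter for letter at another gene of the sequence table (403, 45 and 4 genes), with black lines at the medians and Mir30 genes in red. Mir30e and Mir30a lie high in the first group, and Mir30c-1 and Mir30c-2 lie near the median of 22.5 CPM of the second.

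Other genes close to the family in sequence gave few or no counts. Mir384, which carries the same seed on chromosome X (5p strand at chrX:105344332-105344354), had 17 counts, or 4.53 CPM, in replicate 1 and 18 counts, or 3.51 CPM, in replicate 2. Both values lie below the lowest Mir30 gene. Mir30f, annotated on the strand opposite Mir30e at the same place, has the seed UAAACAU, and it was not among the listed genes. Opposite-strand counts at Mir30e were 0 in both libraries, which allows up to 0.799 CPM in replicate 1 and 0.584 CPM in replicate 2 (3 counts each).

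Of the families in genomic pairs, Mir181 and Mir29 were chosen for comparison with earlier results of these data known, and both were lower. They do not stand for all such families. The Mir181 family, with 6 of 6 genes listed, accounted for 0.309% and 0.291% of gene counts in replicates 1 and 2, and the Mir29 family, with 4 of 4 listed, held 0.0264% and 0.0250%. The Mir30 share lay above both in each library, and the spread between libraries was far smaller than the gap. Like the Mir30c genes, Mir181a-1, Mir181a-2, Mir181b-1, Mir181b-2, Mir29b-1 and Mir29b-2 each have a mature sequence made at another gene too. Reads of such a sequence enter no gene's count. The shares leave those reads out and do not give the full amount of any of these families. The let-7 family, with 10 of 12 fixed genes listed, held more, 8.70% and 7.74%. Within-family differences were of similar size, since the highest gene exceeded the lowest by 440-fold in Mir30, 336-fold in Mir181 and 165-fold in Mir29. The lowest genes were Mir30c-2 at 15.3 CPM, Mir181b-1 at 4.51 ± 1.15 CPM (20 and 19 counts) and Mir29b-2 with 6 and 3 counts. The Mir29b-2 ratio rests on those few counts. Each of these lowest genes has a mature sequence made at another gene too, while the highest genes, Mir30e, Mir181c and Mir29a, have none in the sequence table. The part of this sharing in the folds was not tested.

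The 2 pups differed little in this family. Between libraries, log2 ratios of replicate 2 over replicate 1 after TMM scaling ran from -0.24 for Mir30e to 0.45 for Mir30c-2. Their median absolute value was 0.17, against 0.32 over all 373 genes tested. It was 0.24 over the 90 tested genes with a mean of at least 1000 CPM, the range of Mir30e, Mir30a and Mir30d. Over the 106 with a mean of 10 to 200 CPM, the range of Mir30b and the Mir30c genes, it was 0.31. With an adjusted p under 0.05 (exact two-sided binomial test, Benjamini-Hochberg over all 373 genes) and at least 2-fold, 0 of 6 members were called, and 19 of all genes, or 5.09%, were. At an unadjusted p under 0.05 in the same test, 2 of 6 members passed, against 195 of all genes, or 52.3%. This test compares 2 libraries beyond counting error and not conditions.

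Without the 2-fold minimum, 2 of 6 members differed beyond counting error, both lower in replicate 2, against 49.1% of all genes tested in either direction and 23.3% lower in replicate 2. Mir30e was lower in replicate 2 by a log2 ratio of -0.24 (95% interval -0.27 to -0.22, adjusted p = 1.43e-90, exact binomial). Mir30a was lower by -0.13 (-0.16 to -0.10, adjusted p = 1.31e-17, exact binomial). Such p-values rest on many reads per gene, and the changes themselves are small. The log2 ratio was -0.016 for Mir30d (-0.046 to 0.015), 0.020 for Mir30b (-0.17 to 0.21), 0.21 for Mir30c-1 (-0.19 to 0.63) and 0.45 for Mir30c-2 (-0.064 to 0.98), and none of these 4 passed. The intervals of the 2 Mir30c genes are wide, and that of Mir30c-2 reaches almost to 2-fold, so a smaller change was not detectable at this depth. Epithelial and cartilage markers were also higher in replicate 1, by 24.8-fold and 6.77-fold in summed CPM, and their part in the values of Mir30e and Mir30a was not tested.

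**Figure D4:**
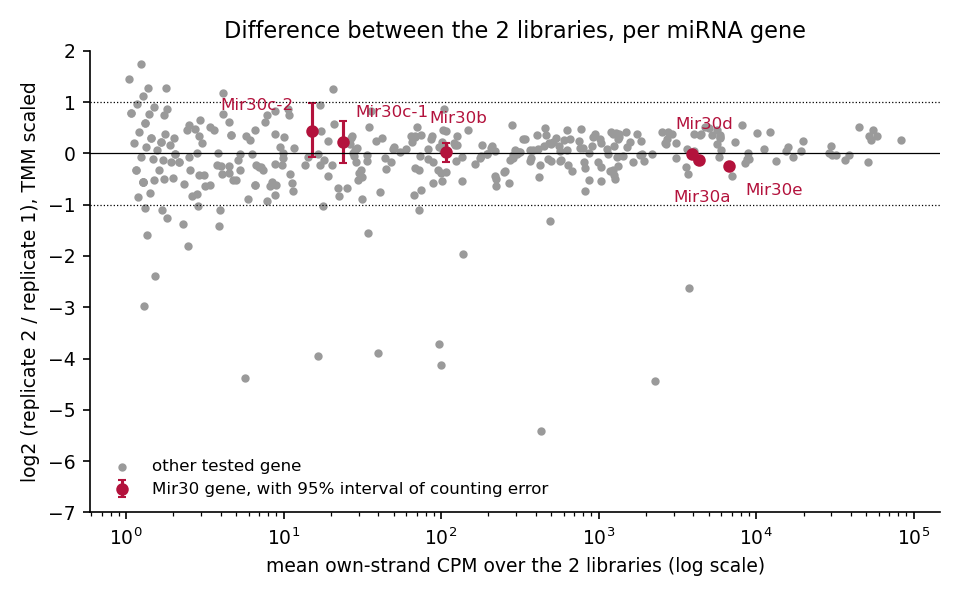
Log2 ratio of replicate 2 over replicate 1 after TMM scaling against mean CPM (log scale) for 373 tested genes, with Mir30 genes in red, their 95% intervals for counting error as bars, and dotted lines at 2-fold. All 6 Mir30 genes lie between -0.24 and 0.45, inside the dotted lines.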

How the data were processed

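The authors deposited whole-number read counts per miRNA gene for each library, made on build mm10 with annotation M4 per the deposited descriptions. The name of the aligner or counter is not given in the sources used here. Every count table has 3 unnamed columns of counts. The first equals the sum of the others in every gene, so they were read as either strand, own strand and opposite strand. The own-strand column was used, and 4 leading lines (multimapping reads and the like) stayed out of library sizes.

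Genes were matched by identifier, without version, to GENCODE M21 on the same build (1894 of 1973), which gave names, places and hosts. Sequences came from RefSeq. The members, lists and tests were chosen with earlier results of these data known. CPM used the own-strand gene total. Within-pair ratios and ratios between libraries used 0.5 added to each count. The latter were scaled with TMM (factors of 1.05 and 0.955; edgeR 4.0.16, R 4.3.3), with an exact binomial test of genes with at least 10 counts in total, Benjamini-Hochberg adjustment and Clopper-Pearson intervals (scipy 1.17.1). edgeR's quasi-likelihood test was not run, as 1 group gives no contrast. On simulated counts for 373 genes, this test recovered 72 of 101 genes changed 2-fold and 94 of 99 changed 4-fold without the fold minimum and passed 2 of 173 unchanged genes. With the fold minimum, 0 of those 173 were called. The simulated counts held counting error alone, with no variation between pups or library preparations. They therefore do not give the error rate of the test in these libraries. Genes named were the members, genes with the same seed, Mir30f, fixed cell type markers, the genes next to each member by mean CPM, and members of the Mir181 and Mir29 families. Mirlet7f-2 and the Mir16 genes were named after their values were seen. Alternatives were either-strand counts, other denominators, hairpin length, pseudocount, filters, scaling by total counts or by DESeq2 1.42.0, other pair limits and each library alone.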

Additional observations from a re-analysis of the deposited data

How the results depend on the processing

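Of 33 alternative values for the family share, the pair ratios, the counts of differing members and the count of other pairs, 31 kept their direction and moved by at most 1 SD or, for counts, by at most 1.5 times. Among these, members beyond counting error rose from 2 to 3 under total-count scaling, and other pairs at least as unequal as the Mir30d pair went from 25 to 19 with at least 50 counts required. The 2 that moved more were the family share over all reads, 0.788%, where the denominator grows, and the log2 ratio of Mir30d over Mir30b per base of hairpin, 5.42, a change set by hairpin length. Leaving out either library gave a share of 1.36% to 1.66% and log2 ratios of 7.85 to 8.42 for Mir30a over Mir30c-2, 5.17 to 5.21 for Mir30d over Mir30b and 7.89 to 8.35 for Mir30e over Mir30c-1. With 2 libraries such values always lie within 1 SD of the mean, so they cannot show instability. Nor can the pair ratios from either-strand counts, since no Mir30 gene had opposite-strand counts. The share without the Mir30c genes could hardly move either, as they held few of the family's counts. Total-count scaling shifted the median log2 ratio between libraries by -0.13 over all genes, and Mir30d (-0.15) then also differed beyond counting error. No paired analysis was possible because the pups form a single group. Low depth limits Mir30c-1 and Mir30c-2, with at most 126 counts per library.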

Other observations

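The genes nearest to each member by mean CPM over the 2 libraries were of many kinds. Mir30e lay between Mir21a (7078 ± 1974 CPM; SD, n = 2) and Mir99b (6007 ± 187 CPM). Mir30a lay between Mir300 (4388 ± 505 CPM) and Mir100 (4190 ± 574 CPM), and Mir30d between Mir540 (4024 ± 489 CPM) and Mir140 (3753 ± 3941 CPM). Mir140 reached that mean through replicate 1, while Mir30d was alike in both libraries. Mir30b lay between Mir3102 (108 ± 15.5 CPM) and Mirlet7a-2 (107 ± 25.2 CPM), Mir30c-1 between Mir138-2 (25.3 ± 9.84 CPM) and Mir505 (23.8 ± 1.62 CPM), and Mir30c-2 between Mir1249 (16.4 ± 1.22 CPM) and Mir19a (15.0 ± 1.97 CPM). Nearness in level over 2 libraries says nothing of shared control.

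The other members of the Mir181 and Mir29 families also differed widely in CPM, which leaves out reads with several places. In the Mir181 family, Mir181c had 1517 ± 0.922 CPM, Mir181d 641 ± 113 CPM, Mir181a-1 514 ± 21.3 CPM, Mir181b-2 222 ± 67.4 CPM and Mir181a-2 104 ± 36.8 CPM (SD, n = 2). In the Mir29 family, Mir29a had 180 ± 16.9 CPM and Mir29c 74.8 ± 8.25 CPM, and Mir29b-1 had 6 and 5 counts.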
